A study of Mus musculus with 31 samples.

Results

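Serpina1a, Serpina1b and Serpina1d are 3 mouse genes for alpha-1-antitrypsin, a secreted inhibitor of neutrophil elastase and other serine proteases that is made mainly in the liver. They are near-identical copies that sit side by side with Serpina1c and Serpina1e, and their sixth family member Serpina1f, on chromosome 12. They were followed here in 2 brain regions of 2 inbred mouse strains. The 3 genes were chosen because earlier values of these same arrays differed between the strains, so the strain difference is described below and not tested. Probes were assigned by the RefSeq accession in the scanner files. Of 21154 named genes on the array, Serpina1a and Serpina1d had 2 probes each, so the members comprised 4 probes of 2 genes. No probe used here carried an accession of Serpina1b, which is not analysed here.

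RNA came from the nucleus accumbens (NAc, a ventral striatal region of the reward system) and the medial prefrontal cortex (mPFC) of female DBA2/J (DBA) and C57BL/6J (C57) mice aged 12 weeks. In repeated cross-fostering (RCF), a litter was given to a new dam on each of postnatal days 1 to 4, 4 moves in all, and stayed with the last dam until weaning on day 28. Control litters were lifted out daily and put back with their own mother. No transgene was present in any group, and at most 2 mice came from 1 litter, so some samples of a group may share a litter. The 8 groups were DBA NAc RCF, DBA NAc control, C57 NAc RCF, C57 NAc control, DBA mPFC RCF, DBA mPFC control, C57 mPFC RCF and C57 mPFC control, with 4 arrays each except 3 in the last.

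Each of the 31 one-colour arrays held 62976 spots, and between 58.6% and 81.9% of probes were well above background. The scanner files were matched to samples through the deposited series matrix. Each file correlated with its own matrix column at r of at least 0.9999936 and with any other at no more than 0.9980283, and 29 files belonged to another sample than the one they were listed with. Read this way, strain markers went against the label on 2 arrays and tissue markers on 5, compared with 16 and 15 for the files as listed. Within groups, 4 pairs of arrays were nearly identical and were averaged, leaving 27 samples: 4, 4, 4 and 2 in the NAc groups and 3, 3, 4 and 3 in the mPFC groups, in the order above. Each of the 4 slides held 1 strain and 1 tissue with both treatments, so slide cannot be told apart from strain or from tissue, whereas RCF and control were compared within a slide.

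Markers went against the label in 6 samples, and results are given with and without them. Of these, 2 bear most on Serpina1. DBA NAc control 4 and DBA mPFC control 1 had strain marker scores of 7.26 and 5.35, the log2 level of Gpnmb taken from the average of Glo1 and Gabra2. The other DBA arrays scored 10.68 to 12.48, and the C57 arrays that matched their labels scored 5.12 to 7.65. Xist, the RNA of the inactive X chromosome in females, was at -5.87 in DBA mPFC control 1 and at 0.21 or above in the DBA samples that matched their labels. The remaining 4 samples in doubt were C57 samples whose neuronal markers fitted the other brain region. Among arrays that matched their labels, striatal minus cortical marker scores were 4.66 to 7.77 in NAc and -1.33 to 1.05 in mPFC.

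Alpha-1-antitrypsin belongs to the serpins, proteins that trap a protease through a reactive loop and are then cleared together with it. Humans have a single SERPINA1 gene, whose loss leads to emphysema, whereas mice carry several copies whose number varies among inbred strains. In liver the genes are driven by hepatocyte nuclear factors such as HNF1. Brain contains little of the transcript compared with liver.

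The promoters of the copies show how alike the members are. In RefSeq's mouse table, build GRCm38.p6, the family runs in the order Serpina1f, Serpina1b, Serpina1d, Serpina1a, Serpina1c, Serpina1e along chromosome 12. All 6 family genes had a promoter of 300 bases there, and all are on the minus strand. Any 2 of Serpina1a to Serpina1e were 91.4% to 97.6% identical over their aligned parts, against 45.3% to 49.4% for Serpina1f with any of them. The 100 bases up to the annotated start are printed 5′ to 3′ for the 3 members and Serpina1f, with GTTAAT, a half-site of the kind HNF1 binds, in capitals. They lie at chr12:103863620-103863719 (Serpina1a), chr12:103738190-103738289 (Serpina1b), chr12:103773634-103773733 (Serpina1d) and chr12:103695530-103695629 (Serpina1f).
Serpina1a: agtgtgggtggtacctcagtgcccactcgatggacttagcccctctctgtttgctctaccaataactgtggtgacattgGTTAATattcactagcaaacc
Serpina1b: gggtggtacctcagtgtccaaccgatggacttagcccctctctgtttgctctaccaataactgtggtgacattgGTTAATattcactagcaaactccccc
Serpina1d: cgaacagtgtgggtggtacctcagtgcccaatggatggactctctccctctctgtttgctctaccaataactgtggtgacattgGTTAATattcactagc
Serpina1f: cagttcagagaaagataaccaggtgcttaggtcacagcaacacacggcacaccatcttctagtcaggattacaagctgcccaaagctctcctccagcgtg
GTTAAT was searched on both strands of the 300-base promoters. It occurred once, on the sense strand, in each of Serpina1a, Serpina1b, Serpina1c, Serpina1d and Serpina1e and not in Serpina1f. Among 32851 mouse promoters in the table, 7.1% held it. The sequences are those of the C57BL/6J reference genome, so they do not show the DBA alleles.

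All 4 member probes were far brighter in DBA than in C57 brain, in both regions and after both rearing conditions. Levels are log2 signals minus the 75th percentile of the array, so a value of 0 equals that percentile and each unit is a doubling. In bulk tissue, a change in the number of cells of a type and a change in RNA per cell cannot be told apart.

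The brightest member probe was A_55_P2165414, assigned to Serpina1a. In NAc its level in RCF mice was 0.47, 0.25, 0.19 and 0.72 in the DBA samples and -4.46, -4.42, -4.60 and -3.98 in the C57 samples. In NAc controls it was 1.06, -0.16, 0.28 and -4.52 in DBA and -4.91 and -4.80 in C57. The DBA NAc samples other than control 4 all lay far above every C57 NAc sample, and control 4 lay among them. In mPFC of RCF mice it was -0.26, -0.46 and 0.06 in DBA and -3.93, -3.54, -4.08 and -4.66 in C57. In mPFC controls it was -3.39, -0.49 and 0.11 in DBA and -4.35, -4.34 and -4.31 in C57. The low DBA value is control 1, against a highest C57 level in either region of -3.54. The probe was well above background on 16 of 16 DBA arrays and 13 of 15 C57 arrays, so C57 brain also gave a measurable signal.

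**Figure D1:**
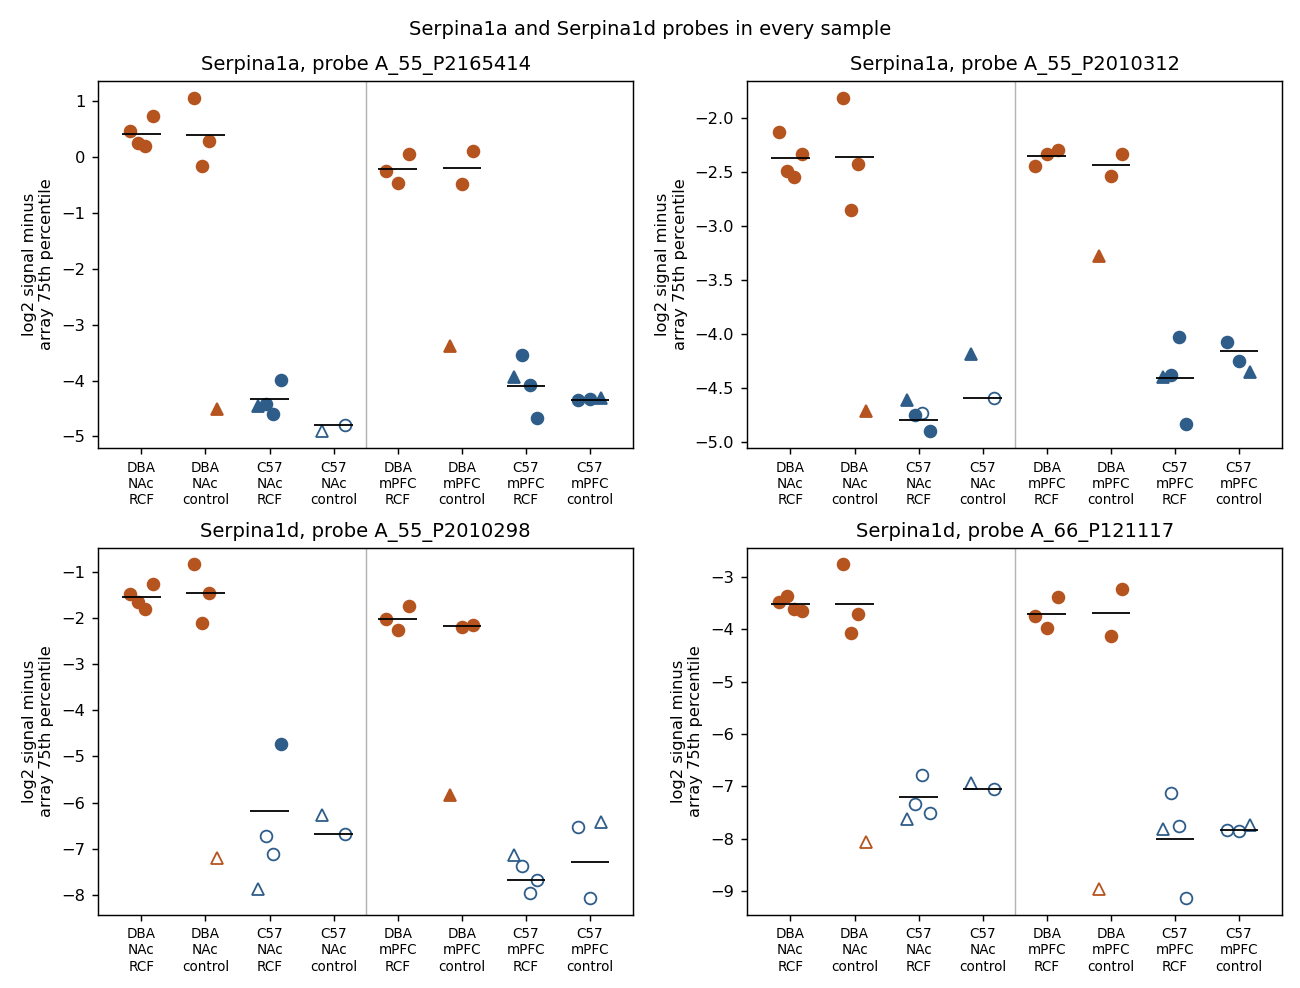
Level of each member probe in all 27 samples (log2, relative to the 75th percentile of its array), by strain, tissue and treatment. Circles are samples whose markers match the label, triangles the 6 samples in doubt, open symbols samples not well above background on all their arrays, and lines the mean of the circles. The DBA circles lie above all C57 samples in each panel, and the 2 DBA triangles lie near the C57 samples, except that DBA mPFC control 1 lies between the strains for A_55_P2010312, at -3.28.

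Leaving out the samples in doubt, the DBA minus C57 difference of this probe was 4.74 in NAc RCF, 5.19 in NAc control, 3.87 in mPFC RCF and 4.15 in mPFC control. These correspond to 26.7-fold, 36.6-fold, 14.7-fold and 17.8-fold higher signal in DBA. The NAc control value rests on 3 DBA samples and 1 C57 sample, whose signal was well above background on 1 of its 2 arrays. With all samples the differences were 4.77, 4.02, 3.83 and 3.08 in the same order, since the 2 low samples are DBA controls.

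The second Serpina1a probe, A_55_P2010312, gave a smaller difference. In the 12 DBA samples that matched their labels its level was between -2.85 and -1.81, with a median of -2.38. In the 13 C57 samples it was between -4.90 and -4.03, with a median of -4.40. DBA NAc control 4 was at -4.72, among the C57 samples, and DBA mPFC control 1 at -3.28, between the strains. The remaining DBA samples did not overlap with C57, and the differences without the samples in doubt were 2.42 in NAc RCF, 2.24 in NAc control, 2.06 in mPFC RCF and 1.73 in mPFC control. With all samples they were 2.38, 1.44, 2.06 and 1.51 in the same order, and the strains overlapped in NAc control. The probe was well above background on 16 DBA arrays and on 13 of 15 C57 arrays. Without the samples in doubt it was so on 2 of 3 C57 NAc RCF arrays and 1 of 2 C57 NAc control arrays. The 2 probes of Serpina1a therefore disagreed on the size of the difference, and no level of one was set against the other.

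Serpina1d was measured in DBA brain and nearly always below the detection mark in C57 brain. Probe A_55_P2010298 had levels of -1.48, -1.65, -1.82 and -1.26 in DBA NAc RCF mice and -0.85, -2.11, -1.47 and -7.20 in DBA NAc controls. In DBA mPFC it had -2.04, -2.27 and -1.75 in RCF mice and -5.83, -2.21 and -2.15 in controls. In C57 it ranged from -8.06 to -4.73 and was well above background on 1 of 15 arrays, C57 NAc RCF 4, which held the highest of these values. DBA was at least 17.2-fold higher in mPFC RCF, at least 12.4-fold in mPFC control and at least 11.8-fold in NAc control (against 1 C57 sample), without the samples in doubt. With all samples these bounds were 16.3, 5.21 and 4.26. In NAc RCF the C57 levels were -7.87, -6.71, -7.10 and -4.73, of which only the last was detected above background, and the size of that difference is left out. A bound takes the DBA mean over the C57 mean of the higher of the probe's own signal and the dimmest signal well above background on that array.

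The other Serpina1d probe, A_66_P121117, was well above background on 14 of 16 DBA arrays and on 0 of 15 C57 arrays. It ranged from -4.14 to -2.76 in the 12 DBA samples that matched their labels. In the 13 C57 samples, whose signals were not well above background, it ranged from -9.13 to -6.78. Without the samples in doubt, DBA was at least 4.12-fold higher in NAc RCF, 2.88-fold in NAc control, 5.35-fold in mPFC RCF and 4.36-fold in mPFC control. With all samples the bounds were 4.16, 1.27, 5.06 and 1.26 in the same order, and the strains overlapped in both control strata.

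Counting probes whose DBA samples all lay above all C57 samples puts these values beside the rest of the array. With all samples, 4 of 4 member probes did so in NAc RCF and in mPFC RCF, 3 in mPFC control and 1 in NAc control. The share of all probes was 6.39% in NAc RCF, 18.3% in NAc control, 30.1% in mPFC RCF and 30.3% in mPFC control. Without the samples in doubt all 4 member probes did so in each of the 4 strata, against 8.72%, 35.2%, 33.4% and 43.8% of probes. The members were selected on this contrast, so the counts describe the selection.

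The 2 DBA-labelled samples with C57 strain markers were hybridised on the same slides as the other DBA samples. On the DBA NAc slide, A_55_P2165414 was -4.52 in control 4 and between -0.16 and 1.06 in the other 7 samples. On the DBA mPFC slide it was -3.39 in control 1 and between -0.49 and 0.11 in the other 5. Control 4 lay within the C57 range and control 1 just above it. The part of slide or strain in these levels was not tested. For Serpina1d A_55_P2010298, control 4 had -7.20 and control 1 had -5.83, against -2.27 to -0.85 in the other 12 DBA samples. In A_66_P121117 both samples were not well above background, at -8.06 and -8.95. In Serpina1c and Serpina1e A_55_P2113857, control 1 was at -2.99 and -3.03, above the highest C57 levels of -3.59 and -3.58. Control 4 was at -5.20 and -4.89 there. In Serpina1e A_55_P2010292, control 1 was at -2.29, between the highest C57 level of -2.80 and the lowest of the other DBA samples, -2.25. Control 4 was at -3.92.

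**Figure D2:**
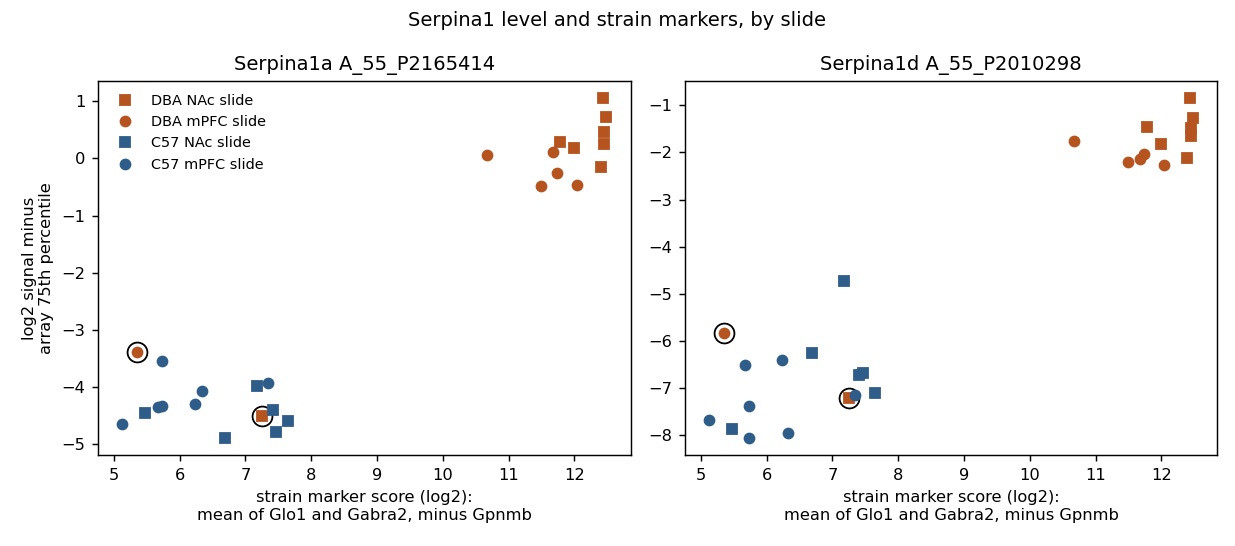
Level of Serpina1a A_55_P2165414 and Serpina1d A_55_P2010298 against the strain marker score, Glo1 and Gabra2 averaged, less Gpnmb (both axes log2), 1 point per sample, coloured by the strain and shaped by the tissue of its slide. The 2 circled samples from DBA slides, with scores of 5.35 and 7.26, lie near the C57 samples on both axes; DBA mPFC control 1, at -3.39, is above the highest C57 sample, at -3.54, in the Serpina1a panel.

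The other family members were compared in the same way. Serpina1c, another antitrypsin copy, was 4.80, 5.19, 3.87 and 4.04 log2 units higher in DBA in NAc RCF, NAc control, mPFC RCF and mPFC control without the samples in doubt. Serpina1e differed by 5.01, 4.84, 3.42 and 3.80 with probe A_55_P2113857 and by 1.76, 1.56, 1.96 and 1.46 with probe A_55_P2010292. In NAc, A_55_P2113857 was well above background on 1 of 3 C57 RCF arrays and 1 of 2 C57 control arrays here. Its NAc values thus rest largely on C57 signals near background. The Serpina1c probe was well above background on 1 of 2 C57 NAc control arrays. Serpina1f, the most divergent copy, had DBA minus C57 values of the opposite sign and smaller size: -0.25, -0.30, -0.20 and -0.52. It was well above background on all 31 arrays, at -2.94 to -1.32 in the 12 DBA samples and -2.55 to -0.95 in the 9 C57 samples that matched their labels.

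**Figure D3:**
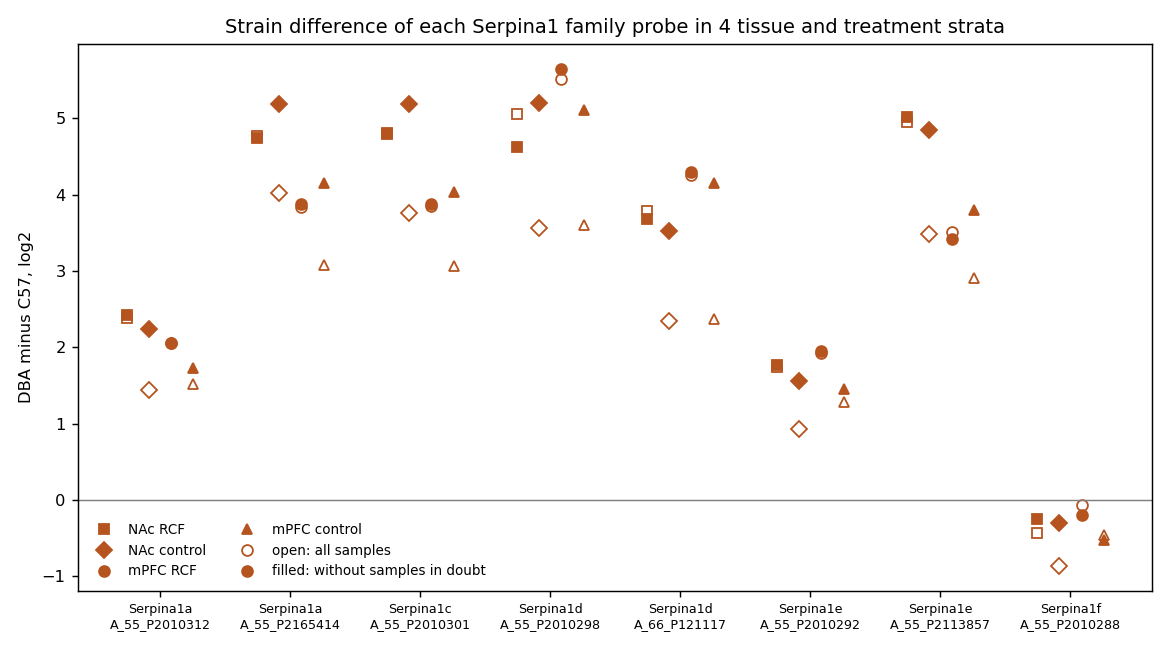
DBA minus C57 difference of group means (log2) for the 8 probes of the family in 4 strata of tissue and treatment, with filled symbols leaving out the samples in doubt and open symbols using all samples. The 7 probes of Serpina1a, Serpina1c, Serpina1d and Serpina1e are all above 0 and the Serpina1f probe is below 0. For those 7 probes the open control symbols lie below the filled ones. For the Serpina1d probes the values rest on C57 signals that were almost never well above background.

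Several of these probes moved together. Across the 12 DBA samples that matched their labels, deviations from the group means correlated at r = 0.99 between Serpina1a A_55_P2165414 and both Serpina1c A_55_P2010301 and Serpina1e A_55_P2113857. The difference between the Serpina1a and Serpina1e probes had an SD of 0.05 over these samples, against 0.46 and 0.45 for each probe alone. With Serpina1d A_55_P2010298 r was 0.93, and with Serpina1d A_66_P121117 and Serpina1a A_55_P2010312 it was 0.87 for each. With Serpina1f it was 0.14. These correlations describe 12 samples that also share arrays and scaling. The files give no probe sequences, so cross-hybridisation among the near-identical copies was not tested, and neither was the share of RNA of other copies in the Serpina1a and Serpina1d signals.

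**Figure D4:**
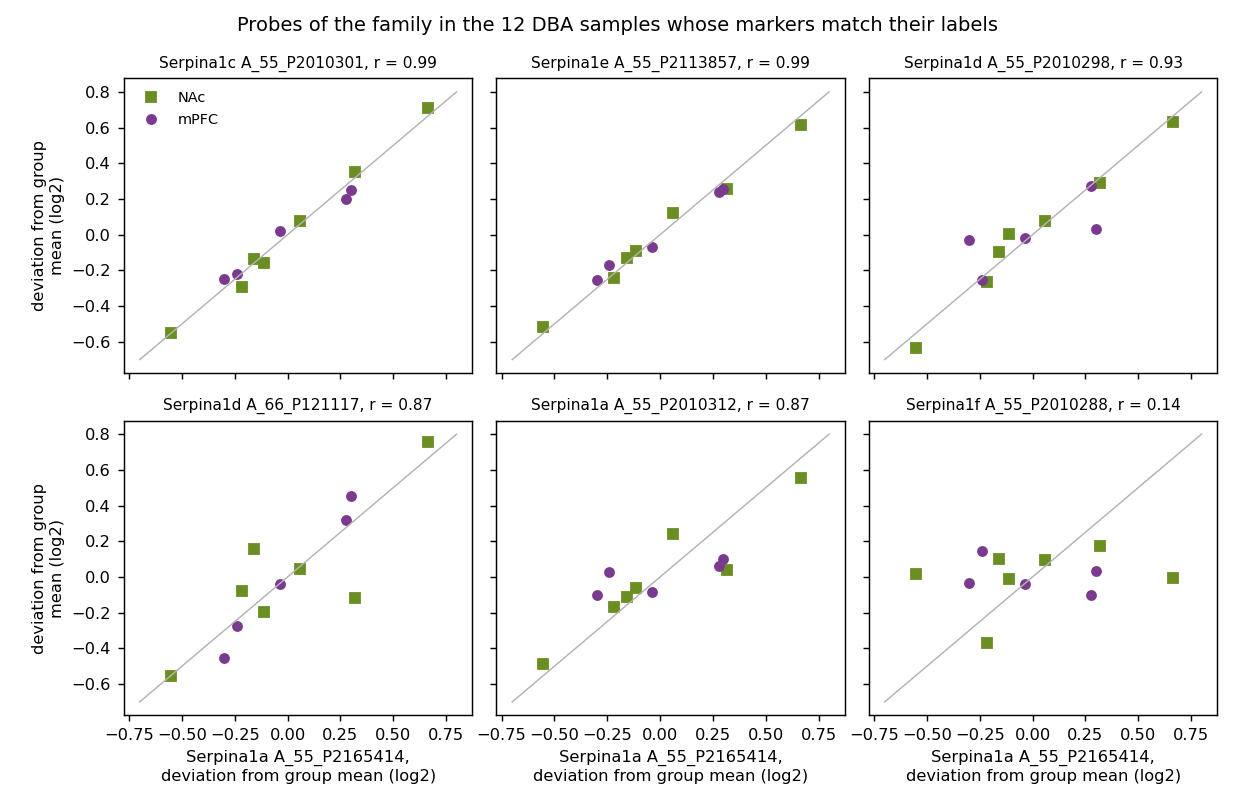
Deviation of 6 family probes from their group means against that of Serpina1a A_55_P2165414 (log2), 1 point per DBA sample that matched its label (n = 12), with the line of equal deviation. Serpina1c, Serpina1e A_55_P2113857 and Serpina1d A_55_P2010298 follow the line at r = 0.93 to 0.99, and Serpina1f does not, at r = 0.14.

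The named genes whose pattern over all 27 samples was most like A_55_P2165414 were, among 17858 genes, Serpina1c (r = 1.00), Serpina1e (r = 0.99), Stab2 (r = 0.98), H2-K2 (r = 0.97) and Tescl (r = 0.97). Stab2 encodes a scavenger receptor of liver sinusoidal endothelium, and H2-K2 lies in the major histocompatibility complex. Stab2 was between 1.22 and 3.34 in the DBA samples that matched their labels and between -4.38 and -3.77 in those of C57. Control 4 and control 1 of DBA had Stab2 at -3.88 and -3.34. H2-K2 was at 0.59 and 1.47 in them, against 1.77 to 2.52 in the other DBA samples and 0.32 to 0.71 in C57. After group means were removed, Serpina1c and Serpina1e led again (r = 0.99 and 0.98), followed by Mbl2, a plasma lectin of innate immunity (r = 0.94), and Stab2 (r = 0.93). Mbl2 had -6.10 in control 4 and -5.78 in control 1, against -2.09 to -1.20 in the other DBA samples. Leaving out the 6 samples in doubt, a choice made after these values were seen, the 5 genes were Serpina1e (r = 0.96), Gvin1 (r = 0.92), Serpina1c (r = 0.92), Gzma (r = 0.84) and Bmp7 (r = 0.83).

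Repeated cross-fostering was the study's treatment, and no member probe was called for it. None of the 4 member probes passed an adjusted p of 0.05 in any of the 4 RCF minus control comparisons (limma, two-sided, Benjamini-Hochberg over 43417 probes), and none had an unadjusted p under 0.05. In C57 the Serpina1d probes were well above background on 1 of 15 arrays (A_55_P2010298) and 0 of 15 (A_66_P121117). Their results in the C57 comparisons therefore say nothing about RCF. Over all probes, 0.479% were called in C57 NAc and 0% in each of C57 mPFC, DBA NAc and DBA mPFC. In DBA NAc, A_55_P2165414 averaged 0.41 ± 0.24 in RCF mice (SD, n = 4) and -0.83 ± 2.51 in controls (SD, n = 4), a difference of 1.24 ± 0.77 (SE). In DBA mPFC it averaged -0.22 ± 0.26 in RCF mice and -1.26 ± 1.87 in controls (SD, n = 3 each), a difference of 1.04 ± 0.89 (SE). The control SDs were set by control 4 in NAc and control 1 in mPFC.

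Once the samples in doubt were left out, the differences between RCF and control DBA mice were within 1 SE of 0. For A_55_P2165414 the difference was 0.01 ± 0.28 in NAc and -0.03 ± 0.33 in mPFC (SE). The Serpina1a probe A_55_P2010312 differed by -0.01 ± 0.22 in NAc and 0.08 ± 0.26 in mPFC. Serpina1d differed by -0.08 ± 0.45 in NAc and 0.16 ± 0.54 in mPFC with A_55_P2010298, and by -0.01 ± 0.40 and -0.02 ± 0.48 with A_66_P121117. No member probe was called, and the share of all probes called was 0.00461% in C57 NAc and 0% in the other 3 comparisons. In C57 this again bears on the Serpina1a probes alone.

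**Figure D5:**
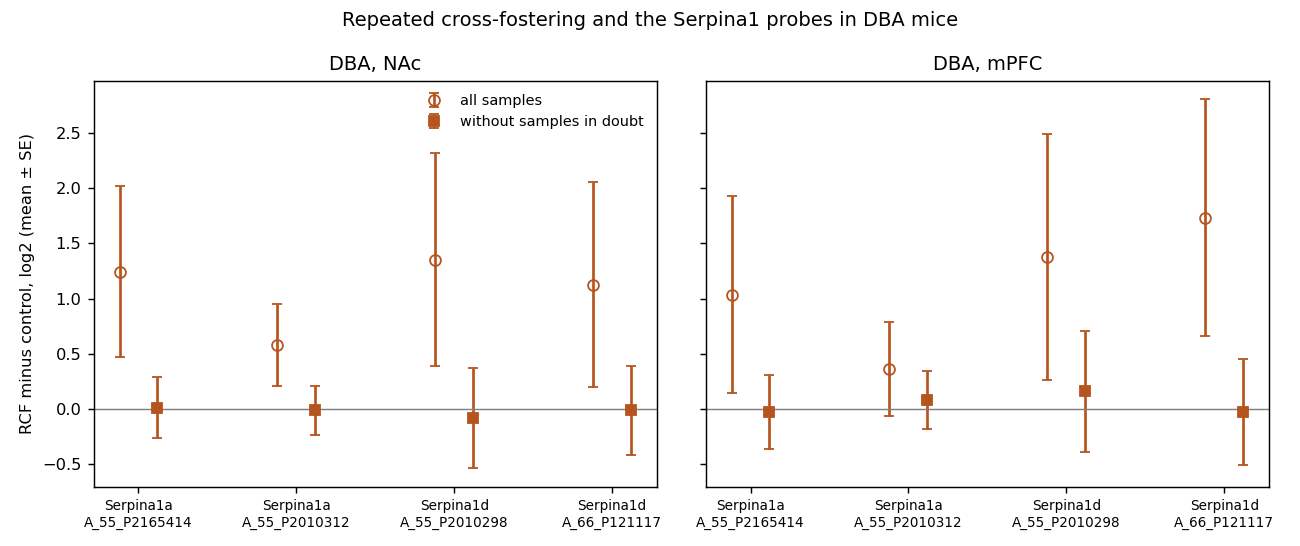
RCF minus control difference of the 4 member probes in DBA NAc and DBA mPFC (log2, mean ± SE from limma), with all samples (circles) and without the samples in doubt (squares). The circles lie between 0.36 and 1.73 and the squares between -0.08 and 0.16.

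In C57 mice no Serpina1a probe was called either. A_55_P2165414 differed by 0.49 ± 0.95 in NAc and 0.28 ± 0.84 in mPFC, and A_55_P2010312 by -0.36 ± 0.45 and -0.18 ± 0.40 (SE). Serpina1d was not well above background on most of these arrays, so no RCF difference is given for it. The test of whether RCF acted differently in the 2 strains called 0 of 4 member probes in NAc and in mPFC, where 0.0023% and 0% of all probes were called, with Serpina1d signals in C57 near background. The test of whether RCF acted differently in the 2 regions called 0 of 4 in each strain, and 0% of all probes in each. In C57 this result bears on the Serpina1a probes alone, since the Serpina1d signals there were near background.

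With all samples, no member probe was called between NAc and mPFC, where much of the array was in DBA. The count was 0 of 4 in each of the 4 comparisons, with Serpina1d signals in C57 near background. Of all probes, 38.2% were called in DBA RCF, 37.7% in DBA control, 8.18% in C57 RCF and 0.166% in C57 control. A_55_P2165414 was higher in NAc by 0.63 ± 0.84 in DBA RCF and by 0.42 ± 0.84 in DBA control (SE, adjusted p = 0.577 and 0.719). Without the samples in doubt these were 0.63 ± 0.28 and 0.59 ± 0.33 (adjusted p = 0.0778 and 0.185). A_55_P2010312 differed by -0.02 ± 0.22 and 0.07 ± 0.26 there.

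With the 6 samples left out, 1 of 4 member probes was called in C57 RCF and 0 in each of the other 3 comparisons. The shares of all probes were 43.3% in DBA RCF, 35.5% in DBA control, 21% in C57 RCF and 5.08% in C57 control. The called probe was Serpina1d A_55_P2010298 (limma adjusted p = 0.0377), which was tested only because DBA groups detected it. It was well above background on 1 of 3 NAc arrays and on 0 of 3 mPFC arrays there. The call thus compares signals near background and is not read as a difference between regions, so no direction or size is given. Leaving out DBA NAc control 4 alone, in limma's fit, A_55_P2165414 was higher in NAc of DBA controls by 1.65 (adjusted p = 0.0197) and A_55_P2010298 by 1.92 (adjusted p = 0.0486). In that comparison DBA mPFC control 1, the other low sample, remained on the mPFC side. With all samples Serpina1f was called: its NAc minus mPFC difference was -1.11 ± 0.26 in DBA RCF and -1.10 ± 0.26 in DBA control (SE, limma adjusted p = 0.00201 and 0.00213). Without the samples in doubt it was also called in C57, at -1.06 ± 0.21 in RCF and -1.39 ± 0.31 in control (SE, limma adjusted p = 0.0017 and 0.0149).

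Of 19 other clade A serpins, relatives of antitrypsin that include antichymotrypsin-like inhibitors and hormone carriers, 17 were on the array and 11 passed the filter on dim probes. RCF called 0 of the 11 in each of the 4 comparisons, with and without the samples in doubt. Among the 11, Serpina3f, Serpina3i and Serpina3n, antichymotrypsin-like genes, showed a strain difference in the direction of the members. Others went the other way in NAc RCF. Without the samples in doubt, Serpina3f was higher in DBA by 4.93 in NAc RCF and 3.87 in mPFC RCF, Serpina3i by 3.46 and 2.78, and Serpina3n by 2.51 and 2.76. The median of the 11 genes was -0.63 in NAc RCF and 0.76 in mPFC RCF, against -0.02 and 0.14 for all probes. Most of the 11 were thus lower in DBA in NAc RCF, so the named genes do not stand for the list. Their control strata and their detection in C57 are not given here. Between regions, 6 of 11 were called in DBA RCF, 5 lower and 1 higher in NAc, and 5 in DBA control, all lower in NAc, beside 38.2% and 37.7% of all probes. Serpina10, an inhibitor of coagulation factors in plasma, had a NAc minus mPFC difference of -1.39 ± 0.17 in DBA RCF (SE, limma adjusted p = 3.27e-06). Serpina9 was higher in NAc by 4.91 ± 1.42 there (SE, limma adjusted p = 0.00968).

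No other gene of the pathway was called for RCF. Of 8 serine proteases that antitrypsin can inhibit or that resemble them, 7 passed the filter and 0 were called in any RCF comparison. Of 14 genes for export from the endoplasmic reticulum and for regulators of liver transcription, 12 passed and 0 were called. Between regions of DBA mice, 5 of the 7 proteases in RCF mice and 6 in controls were lower in NAc, and of the 12 export genes and regulators 2 were lower in each, with 1 higher in controls. These counts stand beside the 38.2% and 37.7% of all probes above.

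Transcripts that liver cells make in bulk differed in detection. Of 22 plasma protein genes of hepatocytes, 14 passed the filter. Albumin (Alb) was well above background on 1 of 31 arrays, Apoa1 and Serpinc1 on 1 each, Ahsg on 2 and Fgg on 0. Apoa2, Apoc3 and Rbp4 were so on 31, Hp on 30, Apoh, Hpx and Itih1 on 29 and Fga on 26. The rest of the 22 genes lay between, from 5 arrays (Serpinf2 and Ambp) to 22 (Cps1). The mean level of the 14 genes was -4.28 to -2.81 in the 12 DBA samples and -4.24 to -3.40 in the 9 C57 samples that matched their labels, so the strains overlapped. The mean of 9 choroid plexus genes was -4.10 to -1.85 in DBA and -3.55 to -2.37 in C57, and that of 7 blood cell genes -2.16 to -0.30 and -2.78 to -0.28. Their part in the members' levels was not tested.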

How the data were processed

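RNA of 2 brain regions was labelled with Cy3 and hybridised to 31 one-colour Agilent arrays. Per the file headers, the deposited scanner files hold an intensity per spot, background-subtracted by Agilent Feature Extraction 10.7.3.1 and not scaled between arrays, with marks for outlying and detected spots. A series matrix of 30067 probes was deposited on a log2 scale, and the authors' steps behind it are not given in the sources used here. It was used to match each scanner file to its sample and as an alternative.

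Levels are log2 intensity minus the array's 75th percentile. Control spots and outlier marks were left out, and a probe was tested if at least 3 arrays of 1 group detected it above background. Probes were named by RefSeq accession (28026 of 55681). Near-identical pairs of arrays were averaged: their differences were 1.50 to 2.20 times the expected noise, against at least 4.18 for the other pairs, with the limit of 3 set after these ratios were seen. Samples were in doubt when strain, tissue or Xist markers went against the label. Groups were compared with limma 3.58.1 (R 4.3.3), with 8 group means in 1 model and eBayes with trend, adjusted over all probes by Benjamini-Hochberg. The fit was tested on simulated data. Where labels do not give separate litters, p-values measure the spread between these samples, and the number of arrays limits precision.

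The members, gene lists and comparisons were chosen with earlier results of these data known. Every member probe is named, as are the measured relatives in the Serpina1 family. Of the 11 other clade A serpins that passed the filter, only some are named. Genes a small count turns on are named too, and so are the 5 genes most correlated with the brightest member probe by each of 2 measures. Of these, 1 gene is not reported here. Alternatives covered the file map, normexp, quantile scaling, dim-probe filters, 1 probe per gene, averaging, samples in doubt, left-out samples, a replicate block, the groups in the fit and the matrix values. Normexp used the median spot signal, since the files hold no mean signal.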

Additional observations from a re-analysis of the deposited data

How the results depend on the processing

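The strain difference depended most on which sample each scanner file is given. Averaged over the 4 strata it was 3.93 for Serpina1a A_55_P2165414, 1.85 for A_55_P2010312, 4.43 for Serpina1d A_55_P2010298 and 3.19 for A_66_P121117. For Serpina1d these averages use C57 signals near background and do not measure a fold. With the files as listed it was 0.0016, -0.19, 0.55 and 0.53, and 15 of 16 RCF comparisons of member probes were called. That list puts 16 arrays against their strain markers. Normexp background correction gave 2.62, 0.87, 1.67 and 0.70 and moved the median of all probes in mPFC RCF to -0.08, against 0.14. It added an offset of 50 to every signal, which by construction lowers log2 differences that involve dim signals. The share of the offset in these smaller values was not tested. Leaving out single samples gave 3.75 to 4.23, 1.75 to 2.00, 4.26 to 4.79 and 2.91 to 3.62. Leaving out the samples in doubt gave averages of 4.49, 2.11, 5.15 and 3.92. This and the other alternatives moved the averages by less than the SD between replicates, which was 1.19, 0.55, 1.49 and 1.42. That SD covers all samples, so it includes the 2 low DBA controls that leaving out the samples in doubt removes.

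Tissue calls numbered 0, and 1 without the samples in doubt, 1 with only the groups compared in the fit (A_55_P2165414 in DBA RCF, 0.63, limma adjusted p = 0.0228), and 0 to 2 when single samples were left out. Interaction calls stayed at 0 throughout, also with the files as listed, and RCF calls stayed at 0 outside the files as listed. Serpina1d signals near background in C57 limit these counts too. The calls for C57 RCF with 1 of 3 NAc arrays above background, and those without DBA NAc control 4, are given above.

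Differences that were not called changed sign as follows; the cause was not tested. With the files as listed, RCF minus control of A_55_P2010312 was 1.60 in C57 mPFC and 2.00 in C57 NAc (both called). NAc minus mPFC was 0.25 for A_55_P2010312 in C57 RCF, and 0.060, 1.02, -0.079 and -1.23 for A_55_P2165414 in C57 control, C57 RCF, DBA control and DBA RCF. In DBA RCF it was -1.42 for A_55_P2010298 and -1.33 for A_66_P121117. Under normexp RCF minus control of A_55_P2165414 was -0.014 in C57 mPFC and -0.091 in C57 NAc. NAc minus mPFC of A_55_P2010312 in DBA control was 0.0073 under normexp, 0.014 under quantile scaling and, leaving out doubted samples, 0.072. In DBA RCF it was 0.14 under quantile scaling and 0.0032 with all 31 arrays. With a replicate block A_66_P121117 was -0.070 in DBA RCF. The block moved no call; deviations of same-numbered samples correlated at -0.42 to 0.68 between RCF and control and at -0.595 to 0.409 between NAc and mPFC, with both signs in each of these ranges, so pairing was not assumed. Without the samples in doubt, RCF minus control in DBA NAc was -0.079 (A_55_P2010298), -0.0098 (A_55_P2010312) and -0.010 (A_66_P121117), and in DBA mPFC -0.030 (A_55_P2165414) and -0.025 (A_66_P121117).

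When single samples were left out, RCF minus control in DBA ranged over -0.079 to 2.04 (A_55_P2010298, NAc), -0.0098 to 0.96 (A_55_P2010312, NAc), -0.030 to 1.72 (A_55_P2165414, mPFC), -0.025 to 2.84 and -0.010 to 1.76 (A_66_P121117, mPFC and NAc). NAc minus mPFC ranged over -0.73 to 1.92, -0.62 to 0.35, -0.64 to 1.65 and -0.97 to 1.92 in DBA control (A_55_P2010298, A_55_P2010312, A_55_P2165414, A_66_P121117). It ranged over -0.10 to 0.038 in DBA RCF and -0.37 to 0.044 in C57 control for A_55_P2010312. The filter in every group and 1 probe per gene left some member probes out, and no value of a member came from the matrix. Signals near background limit Serpina1d in C57 to bounds.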
